A study of Homo sapiens with 16 samples.

Results

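The aminoacyl-tRNA synthetases were followed over time in SUM-225 cells exposed to an inhibitor of the HER2 kinase. The 33 listed symbols were grouped by name, 18 without a suffix as cytosolic and 15 with the suffix 2 as mitochondrial, and EPRS was counted as cytosolic. The name alone does not show whether a gene without the suffix, such as GARS or KARS, also encodes a mitochondrial enzyme. A probe was kept when its detection p-value, which compares its signal with negative control beads, was under 0.05 on 3 or more of the 16 arrays. Of 32 probes with a listed symbol, 31 were kept, among 16110 kept of the 24526 probes on the array. They covered 28 of the 13108 gene symbols with a kept probe, with 21 probes for all 18 cytosolic genes and 10 probes for 10 mitochondrial genes. The probe left out was a further IARS probe (ILMN_1801639), detected on 0 arrays.

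SUM-225 is a cell line derived from a breast cancer with amplified, over expressed HER2, and CP724,714 is a small molecule inhibitor of that kinase. Cultures grown in parallel received CP724,714 at 1 µM, and RNA was taken every 3 h from the start to 45 h, at 16 time points with 1 array per time point and no replicates. The labels give a medium with 5% serum, insulin at 5 µg/ml and hydrocortisone at 1 µg/ml, whereas the methods of the study describe this line as grown without serum or insulin, and which was used for these arrays was not settled. Untreated cells were not analysed here, and the effects of culture time and of the inhibitor cannot be told apart. The median signal of an array was 242 to 384, and 57.5% to 61.5% of probes were detected. ERBB2, GRB7 and KRT19, expected of a luminal line with HER2 amplification, were detected on all 16 arrays. So were KRT5, CD14 and PECAM1 of the lists for other cell types. Of the fibroblast list, COL1A1 and COL1A2 were detected on 5 arrays each, and COL3A1 and PDGFRB on 0. Of the other lists, KRT14 was detected on 3 arrays, CD3E and CDH5 on 1 each, and PTPRC and TP73L on 0. The arrays fell into 4 sets of 4 consecutive time points (starting at 0, 12, 24 and 36 h), which the labels do not name and which were known from earlier results of these data.

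Aminoacyl-tRNA synthetases join each amino acid to its tRNA and so supply the ribosome. Cytosolic and mitochondrial protein synthesis mostly use separate enzymes for the same amino acid, all encoded in the nucleus, and several cytosolic enzymes are held in a multi-synthetase complex. Many cytosolic synthetase genes are known targets of ATF4, the transcription factor of the amino acid response, which binds CEBP-ATF composite sites.

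The RefSeq promoter windows (GRCh38.p14, 250 bases before to 50 after a start) were searched for that composite site, written TGATGNAA, on both strands. The 28 genes were looked up together with 5 mitochondrial genes that the table holds under older symbols (AARSL, HARSL, RARSL, TARSL1 and VARSL), and 26 of these 33 had a window. The motif was present for 7 of 14 cytosolic genes (50%) and 1 of 12 mitochondrial genes (8.33%), of which 3 were under older symbols, against 4.46% of all genes with a window. The E-box CACGTG was present for 1 of 14 and 1 of 12, against 8.77% of all genes. These stretches of 30 bases are shown because 5 of them belong to genes that moved in the same hours in the data below, AARS, CARS, GARS, MARS and TARS. ASNS, the asparagine synthetase gene and a known ATF4 target, is given beside them. Capitals mark the motif, which reads as its reverse complement where the capitals start with TT.
AARS (AARS1, chr16:70289675-70289704, minus strand): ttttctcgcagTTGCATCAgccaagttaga
CARS (CARS1, chr11:3057407-3057436, minus strand): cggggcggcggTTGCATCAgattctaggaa
GARS (GARS1, chr7:30594834-30594863, plus strand): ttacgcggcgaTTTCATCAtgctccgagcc
MARS (MARS1, chr12:57488053-57488082, plus strand): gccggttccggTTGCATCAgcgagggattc
TARS (TARS1, chr5:33440956-33440985, plus strand): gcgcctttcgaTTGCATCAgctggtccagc
IARS (IARS1, chr9:92293692-92293721, minus strand): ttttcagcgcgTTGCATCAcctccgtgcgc
NARS (NARS1, chr18:57621804-57621833, minus strand): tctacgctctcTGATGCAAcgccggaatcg
YARS2 (YARS2, chr12:32756076-32756105, minus strand): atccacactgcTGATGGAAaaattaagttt
ASNS (ASNS, chr7:97872458-97872487, minus strand): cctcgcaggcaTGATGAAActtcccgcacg
A match describes letters in a window and does not show binding.

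Values below are log2 values after background correction and quantile normalization, and a gene is represented by its brightest kept probe. A cubic course in hours was fitted to every probe with limma, and p-values were adjusted over all 16110 probes by the Benjamini-Hochberg method at a threshold of 0.05. The signal depended on time for 9 of 18 cytosolic and 4 of 10 mitochondrial genes, where 51.3% of all probes did. The linear change over 45 h fell for 7 cytosolic genes and 3 mitochondrial genes, against 21.7% of all probes. It rose for 1 cytosolic and 0 mitochondrial genes, against 26% of all probes. The course departed from a straight line for 4 cytosolic genes and 1 mitochondrial gene, against 19.3% of all probes. The median linear change was -0.06 log2 units over the cytosolic genes and -0.07 over the mitochondrial genes, and 0.05 over all probes.

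**Figure D1:**
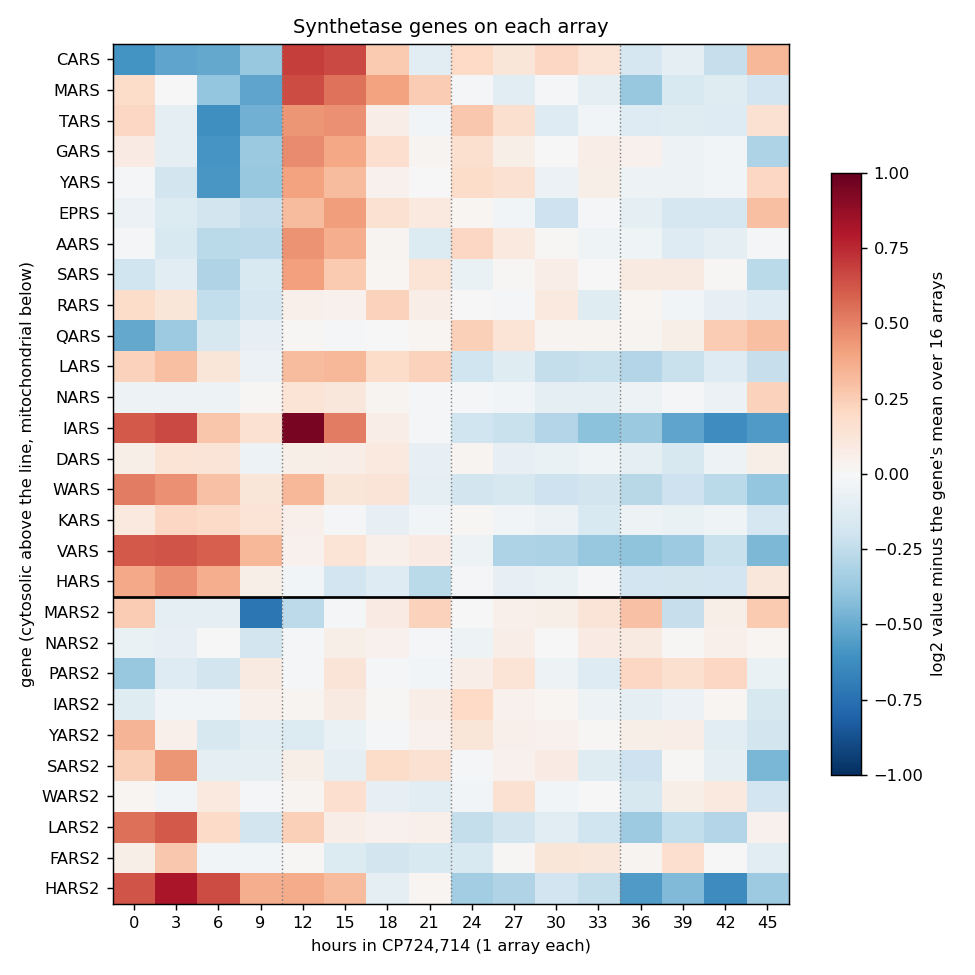
Log2 value of each gene minus its own mean (colour) on each array (columns, hours in CP724,714), with cytosolic genes above the line, mitochondrial genes below, and dotted lines between the 4 sets. The upper cytosolic rows are mostly below their mean at 3 to 9 h and above it at 12 and 15 h, and the mitochondrial rows show no such block.

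The falling cytosolic genes were led by IARS, VARS and WARS, which load isoleucine, valine and tryptophan. IARS read 12.10, 12.15, 11.77 and 11.64 at 0 to 9 h, 12.43, 12.00, 11.56 and 11.46 at 12 to 21 h, 11.29, 11.27, 11.20 and 11.08 at 24 to 33 h, and 11.12, 10.95, 10.87 and 10.92 at 36 to 45 h. Every array from 24 h on was below every earlier one, and the peak stood at 12 h. Its linear change was -1.38 ± 0.16 log2 units (SE; limma, adjusted p = 6.23e-07), or 2.6-fold lower.

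VARS read 12.77, 12.79, 12.76 and 12.49 at 0 to 9 h, 12.20, 12.30, 12.21 and 12.24 at 12 to 21 h, 12.10, 11.84, 11.84 and 11.78 at 24 to 33 h, and 11.76, 11.80, 11.94 and 11.70 at 36 to 45 h. Its mean was lower in each later set, and its linear change was -1.12 ± 0.09 (limma, adjusted p = 1.27e-08). Its second probe, detected on 13 arrays, gave -0.74 ± 0.27 (adjusted p = 0.0308). WARS went from 13.01 at 0 h, its highest value, to 12.11 at 45 h, its lowest, with a change of -0.84 ± 0.08 (limma, adjusted p = 5.35e-08), and its second probe gave -0.82 ± 0.09.

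LARS, HARS, KARS and DARS, the enzymes for leucine, histidine, lysine and aspartate, fell by less. LARS changed by -0.58 ± 0.11 and was between 12.48 and 12.87 up to 21 h and between 12.24 and 12.41 from 24 h on. When the fit allowed a step from 21 to 24 h, its linear estimate was 0.06. HARS changed by -0.43 ± 0.10, KARS by -0.29 ± 0.07 and DARS by -0.17 ± 0.06. RARS and NARS, for arginine and asparagine, gave -0.10 ± 0.10 and 0.02 ± 0.06 and did not pass the test of the linear change. The call for DARS (limma, adjusted p = 0.0345) was lost when any of the arrays at 3, 6, 30, 36 or 39 h was left out, with a change of -0.14 without the 39 h array.

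QARS, the glutamine enzyme, was the cytosolic gene that rose. It read 14.09, 14.24, 14.44 and 14.52 at 0 to 9 h, was between 14.58 and 14.62 at 12 to 21 h, and reached 14.89 at 45 h. The lowest value was the first array and the highest was the last. The linear change was 0.54 ± 0.06 (limma, adjusted p = 8.86e-07), or 1.45-fold, and its course bent (adjusted p = 0.00482). The call was lost with a step from 21 to 24 h (0.18), under median scaling of log2 values (0.31) and with the set as a factor (0.68), and the estimate stayed above 0 in each.

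Another feature was seen in the courses and was not among the tests listed at the start. It involved AARS, CARS, EPRS, GARS, MARS, SARS, TARS and YARS. They are the enzymes for alanine, cysteine, glutamate with proline, glycine, methionine, serine, threonine and tyrosine. Each was lower on every array of 3 to 9 h than on any of 12 to 21 h, and was highest at 12 or 15 h. Low values were not confined to 3 to 9 h. CARS was lowest at 0 h (10.65), MARS read 10.66 at 36 h and EPRS read 13.58 at 30 h. None of the 8 genes had a linear change past the threshold. The contrast of the mean of 12 to 21 h (4 arrays) with the mean of 3 to 9 h (3 arrays) was added after this was seen, so it describes the feature and is no independent evidence of it. It was higher at 12 to 21 h for these 8 of 18 cytosolic genes and 0 of 10 mitochondrial genes, against 14.8% of all probes, and lower for 3 cytosolic genes (HARS, KARS and VARS) and 1 mitochondrial gene (HARS2), against 12.9%. The lower call for KARS (-0.19 ± 0.07) was lost without the 3, 6, 15, 18 or 21 h array, without background correction and under median scaling of linear signals, that for VARS with its second probe, and that for HARS2 without the 3 h array (-0.35). WARS was not called with the probe used (-0.17 ± 0.09), whereas its second probe was lower (-0.28 ± 0.09, limma, adjusted p = 0.0346). The change between 9 and 12 h is also the boundary between the first and second set, so the hours and the set cannot be told apart. Of the 8 genes, 7 had a promoter window and 5 of these held TGATGNAA, as did 2 of the 7 other cytosolic genes with a window, and this difference was not tested.

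The count of 8 depended on the scaling between arrays. Median scaling of log2 values, the version run first, left 2 of 18, CARS and MARS, and turned the sign for AARS (-0.19) and EPRS (-0.09). Under it the median of all probes moved from 0.04 to -0.11, and the share of higher among all probes called between the windows from 53.4% to 25.6%. Median scaling of the linear signals, put in after those values were seen, gave 7 of 18. Cyclic loess gave 8, and no other alternative run gave fewer.

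CARS read 10.65, 10.72, 10.74 and 10.87 at 0 to 9 h and 11.94, 11.92, 11.52 and 11.14 at 12 to 21 h, then 11.45, 11.37, 11.46 and 11.39 at 24 to 33 h and 11.08, 11.16, 11.02 and 11.58 at 36 to 45 h. All later arrays were above the first 4. The difference between the windows was 0.85 ± 0.16 (limma, adjusted p = 0.00047), or 1.8-fold, and its second probe gave 0.76 ± 0.13.

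MARS read 11.22, 11.04, 10.65 and 10.51 at 0 to 9 h and 11.69, 11.58, 11.44 and 11.29 at 12 to 21 h. It went down within both sets and was 2.26-fold higher at 12 h than at 9 h. From 24 h on it stayed between 10.66 and 11.03. The windows differed by 0.76 ± 0.12 (limma, adjusted p = 9.13e-05).

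GARS read 13.71, 13.54, 13.05 and 13.27 at 0 to 9 h and 14.10, 14.02, 13.81 and 13.66 at 12 to 21 h, a difference of 0.61 ± 0.11 between the windows (limma, adjusted p = 0.000457). The 0 h array was as high as the 21 h array, and among the low values were those of 6 and 9 h and the 45 h array, at 13.33. TARS read 11.55, 11.25, 10.74 and 10.87 and then 11.79, 11.81, 11.42 and 11.32, with a difference of 0.63 ± 0.14 (adjusted p = 0.00223).

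YARS read 13.22, 13.06, 12.66 and 12.86 at 0 to 9 h and 13.63, 13.55, 13.28 and 13.23 at 12 to 21 h, a difference of 0.56 ± 0.11 (limma, adjusted p = 0.000649). The differences were smaller for EPRS (0.43 ± 0.10), AARS (0.40 ± 0.10) and SARS (0.39 ± 0.10). For AARS the highest array of 3 to 9 h read 14.16 and the lowest of 12 to 21 h read 14.17, so that the windows barely separated. Under median scaling of the linear signals AARS was 0.33 and no longer past the threshold.

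**Figure D2:**
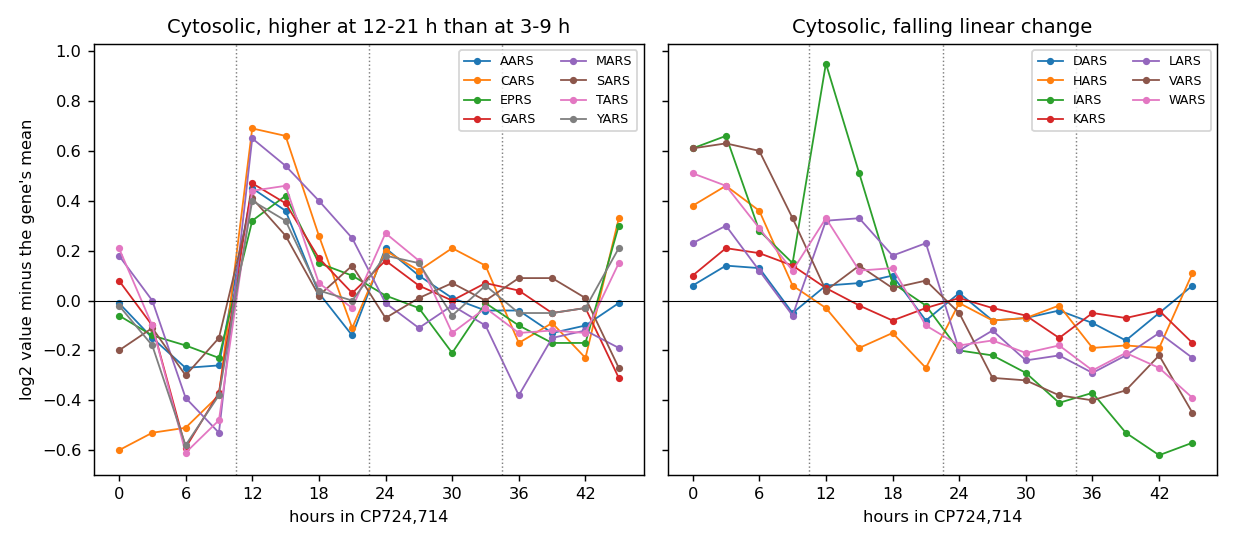
Log2 value minus the gene's mean (vertical axis) against hours in CP724,714 for the 8 cytosolic genes higher at 12 to 21 h (left) and the 7 with a falling linear change (right), 1 point per array, dotted lines between sets. The left courses jump between 9 and 12 h, MARS by 2.26-fold, and IARS on the right shows a peak at 12 h on its decline.

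With the set of 4 arrays as a factor, a straight line in hours fell within sets for 2 cytosolic genes, GARS (-0.35 ± 0.08 log2 units over the 9 h of a set; limma, adjusted p = 0.0415) and IARS (-0.49 ± 0.11; adjusted p = 0.0353), against 0.478% of all probes. It rose for 0 synthetase genes, against 0.422%, and for 0 mitochondrial genes in either direction. The within-set slope was below 0 for 16 of 18 cytosolic and 10 of 10 mitochondrial genes, and for 7830 of the 16110 probes. It was below 0 for 1 of the 5 mitochondrial genes under older symbols, which gave 10 of 14 with these and without HARS2. Each set spans only 9 h, and the errors of this fit are larger.

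The mitochondrial enzymes moved over narrower ranges, with a median range over the arrays of 0.55 log2 units against 0.77 for the cytosolic ones. Both were below the median range of 0.98 over all probes. HARS2 changed by -1.37 ± 0.12 (limma, adjusted p = 1.44e-08), from 11.43 at 0 h to 10.43 at 45 h. The gene behind this probe is unsettled, because RefSeq lists HARS2 as an older name of DTD1, a D-tyrosyl-tRNA deacylase, and the array also carries a HARSL probe, the older name of the present HARS2. Without HARS2, the linear change fell for 2 of 9 mitochondrial genes (22.2%, against 21.7% of all probes) and rose for 0 (against 26%).

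LARS2, which loads leucine in mitochondria, read 9.80, 9.86, 9.44 and 9.07 at 0 to 9 h. It read 9.49, 9.32, 9.29 and 9.30 at 12 to 21 h and lay between 8.89 and 9.29 from 24 h on. Its change was -0.68 ± 0.14 (limma, adjusted p = 0.000406). SARS2, for serine, changed by -0.40 ± 0.12 (adjusted p = 0.00892), and without the 45 h array, its lowest at 10.64, by -0.29 (adjusted p = 0.0747). YARS2, for tyrosine, had its highest value at 0 h, 13.45, and departed from a straight line (adjusted p = 0.00956). IARS2, NARS2, WARS2 and FARS2 ranged over at most 1.37-fold. MARS2, for methionine, ranged over 2.03-fold, from 6.19 at 9 h to 7.21 at 36 h. Its 9 h value was near the detection limit (detection p-value 0.0413), and its next lowest was 6.65 at 12 h. PARS2, for proline, ranged over 1.51-fold. MARS2 and PARS2 each gave a linear change of 0.28 (± 0.20 and ± 0.13) that did not pass the test.

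Of the listed mitochondrial symbols, 5 were not in the table. AARS2, TARS2 and VARS2 were found as AARSL, TARSL1 and VARSL, while CARS2 and EARS2 were found under no symbol searched. Among 5 mitochondrial genes under older symbols, AARSL fell (-0.53 ± 0.10), and HARSL, RARSL, TARSL1 and VARSL gave between -0.06 and 0.12. With these 5 and without HARS2, 3 of 14 mitochondrial genes fell (21.4%), near the 21.7% of all probes. Of the same 14, 0 were higher at 12 to 21 h, against 14.8% of all probes.

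**Figure D3:**
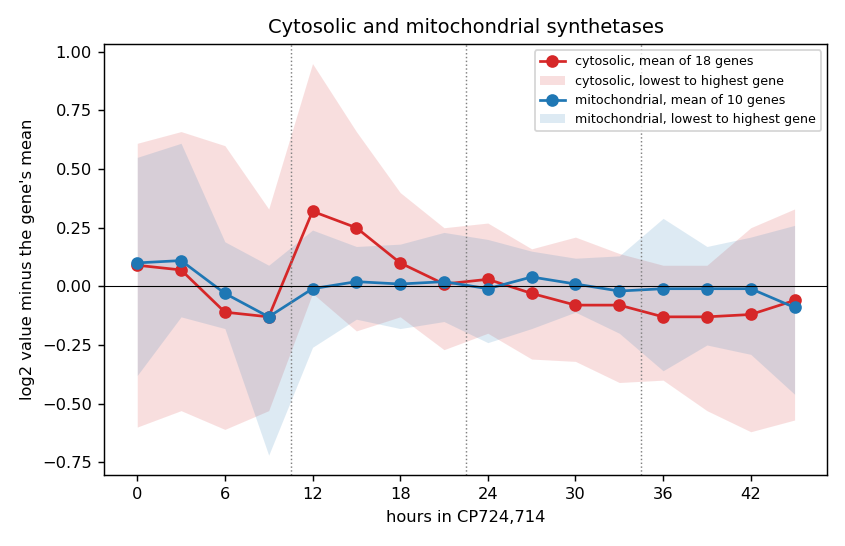
Mean log2 deviation (lines) and lowest to highest gene (shading) of 18 cytosolic genes and 9 mitochondrial genes against hours in CP724,714. The legend counts 10 mitochondrial genes, but HARS2 is in neither the line nor the shading. The cytosolic mean exceeds the mitochondrial mean by 0.32 at 12 h and 0.23 at 15 h.

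On each array the mean deviation of the cytosolic genes was set against that of the 9 mitochondrial genes other than HARS2, with no test. The difference was 0.32 log2 units at 12 h, 0.23 at 15 h and 0.09 at 18 h, and between -0.13 and 0.04 on the other 13 arrays. With the 5 other mitochondrial symbols added it was 0.31 at 12 h. Cytosolic enzymes inside and outside the multi-synthetase complex both stood high at 12 h, at 0.30 and 0.33. By the window contrast, 2 of 8 complex enzymes and 6 of 10 others were higher, against 14.8% of all probes, and the difference between these groups was not tested.

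Both enzymes were measured for 13 amino acid pairs, with 5 mitochondrial partners under older symbols. The window difference was larger in the cytosolic enzyme for 8 pairs, and the range was wider for 10. For valine, VARS changed by -1.12 ± 0.09 and VARSL by 0.12 ± 0.10, and for isoleucine, IARS by -1.38 ± 0.16 and IARS2 by -0.05 ± 0.07. LARS and LARS2 both fell, by -0.58 and -0.68. HARS and the present HARS2 lie on opposite strands of chromosome 5 with RefSeq starts 85 bases apart, and HARS changed by -0.43 ± 0.10 where HARSL changed by 0.06 ± 0.07. The difference within a pair was not tested.

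**Figure D4:**
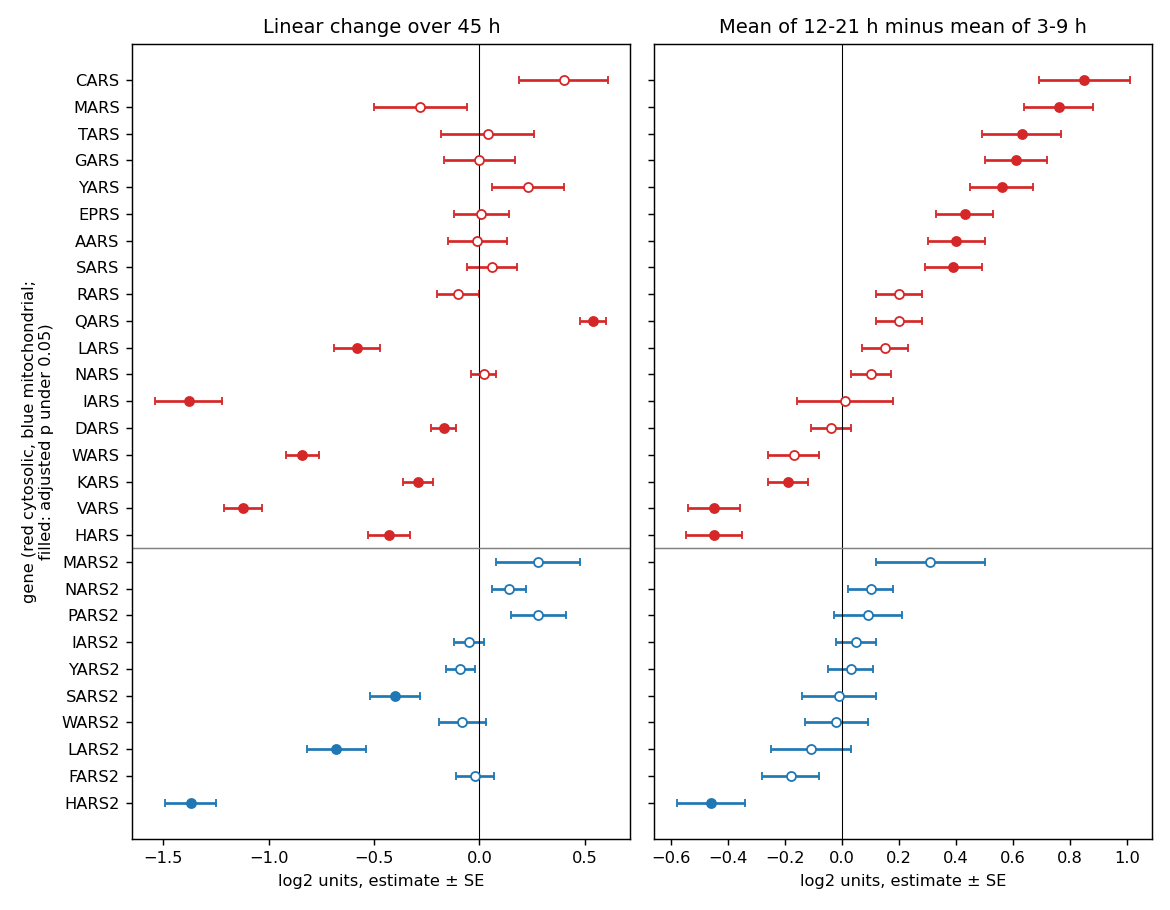
Linear change over 45 h (left) and mean of 12 to 21 h minus mean of 3 to 9 h (right) of each gene, in log2 units with SE, cytosolic in red and mitochondrial in blue, filled where the adjusted p was under 0.05. Filled points above 0 on the right are 8 cytosolic genes, from SARS at 0.39 to CARS at 0.85.

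Companion lists were counted in the same fits. Of 30 genes of ATF4 and the amino acid response, 14 were higher at 12 to 21 h (46.7%, against 14.8% of all probes) and 0 lower (against 12.9%), while the linear change rose for 9 and fell for 9 (30% each, against 26% and 21.7%). ATF4 itself was 0.64 ± 0.09 higher (limma, adjusted p = 5.26e-05), TRIB3, a pseudokinase induced by ATF4, 0.74 ± 0.11 (adjusted p = 4.05e-05) and ASNS 0.73 ± 0.17 (adjusted p = 0.00272). These 3 genes had their highest array at 12 h, but their courses differed. ATF4 rose over the course by 0.71 ± 0.13 (limma, adjusted p = 0.000177). Its means were 15.63 at 12 to 21 h, 15.69 at 24 to 33 h and 15.67 at 36 to 45 h. At 0 h TRIB3 read 14.08 and ASNS 13.84, above their means of 13.84 and 13.79 at 12 to 21 h. DDIT3, the transcription factor CHOP, was 0.22 ± 0.16 higher at 12 to 21 h (limma, adjusted p = 0.33) and rose over the course by 0.94 ± 0.16. Over 45 h NUPR1, a stress-induced chromatin protein, rose most in the list (2.42 ± 0.10), and ASNS fell most (-1.53 ± 0.30).

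The next counts also stand against 26% of all probes rising and 21.7% falling. Among 20 mitochondrial translation factors, 3 rose and 7 fell over the course, with MTIF3, an initiation factor, at 1.06 ± 0.10 and LRPPRC, an mRNA stability factor, at -0.73 ± 0.13. Of 7 cytosolic elongation factor genes, 2 rose and 3 fell, with EEF2 at 0.40 ± 0.09 and EEF1A2 at -0.58 ± 0.07. Of 35 genes for tRNA transcription, processing and export, 1 rose and 10 fell, with the RNA polymerase III subunits POLR3GL at 0.80 ± 0.08 and POLR3G at -1.73 ± 0.25. Of 4 measured complex scaffolds and further synthetases, 1 fell, FARSLA (-0.70 ± 0.13), a subunit of the phenylalanine enzyme.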

How the data were processed

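The deposited table holds signal intensities on a linear scale, to which the authors had applied no background subtraction or normalization. A detection p-value is also deposited for every intensity. Quantile normalization is described in the study's methods as a later step. The array software is not given in the sources used here. Intensities were corrected with neqc of limma 3.58.1 in R 4.3.3 (offset 16, quantile normalization, log2). This offset shrinks fold changes where the signal is low. Fits used lmFit and eBayes with an intensity trend on all 16 arrays. The model was a cubic in hours or had the set of 4 arrays as a factor. The fits were also run on simulated data with independent errors and no steps between sets. Those data do not show how the fits behave when the sets differ. With 1 array per time point the SE comes from deviations around the fit, and the number of arrays limits precision. Of several probes of a gene, the brightest was used. All listed genes were named, with the largest rise and fall of each companion list and ATF4, ASNS, DDIT3 and TRIB3.

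The members and lists were chosen with earlier results of these data known. Some choices followed results seen here. The window contrast was added after the courses were seen, and the arginine pair after the other pairs were counted. Median scaling was first run on log2 values, which multiplies them and so moves bright probes more than dim ones, and a version on linear signals was added after its values were seen. Both versions are reported. Alternatives were also no background correction, an offset of 50, cyclic loess, other filters, array weights, a step at 21 to 24 h, other probes and each array left out. Symbols and promoters came from RefSeq tables of GRCh38.p14. Protein sequences were not used here, and a gene of the companion lists is not reported here. Sequences were searched in Python 3.11.15, and matplotlib 3.10.9 drew the figures.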

Additional observations from a re-analysis of the deposited data

How the results depend on the processing

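Of 250 counts and medians recomputed under the alternatives, 234 stayed within 1.5 times the count or within the median SE, and 16 moved. Under median scaling of log2 values, the version run first, 5 cytosolic genes had a linear change in place of 8, their median was -0.21, and 2 were higher at 12 to 21 h in place of 8, with AARS at -0.19 and EPRS at -0.09 reversed. This scaling was followed by a version on linear signals, added after these values were seen because the first multiplies log2 values. It gave 7 genes higher at 12 to 21 h and 2 that departed from a straight line in place of 4. A step between 21 and 24 h left 4 cytosolic genes and 1 mitochondrial gene with a linear change and reversed LARS (0.06). With the set as a factor 2 cytosolic and 0 mitochondrial genes had a linear change, with medians of -0.71 and -0.30 per 45 h. The errors are larger there. With array weights 2 mitochondrial genes departed from a straight line. Without HARS2 and with the 5 other symbols, 7 mitochondrial genes depended on time and 3 departed from a straight line.

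With each array left out, cytosolic genes with a linear change numbered 7 to 9, those higher at 12 to 21 h 8 to 10, those that depended on time 7 to 12 and those departing from a straight line 2 to 5 (2 without the 3 h or the 15 h array). The mitochondrial counts were 3 to 3, 0 to 0, 4 to 5 and 1 to 2 (2 without the 0 h array). In both groups, the counts higher at 12 to 21 h were recomputed only without each of the 7 arrays from 3 to 21 h. Genes that were not called are counted as unchanged when only their sign turned, which occurred 76 times. No paired analysis was possible because the labels number every array as replicate 1 of its own time point. With no replicate, a difference between neighbouring arrays cannot be separated from variation between cultures.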
